A study of Homo sapiens with 6 samples.

Results

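The set described here holds 10 genes that govern the passage from G1 into S phase: the D cyclins CCND1, CCND2 and CCND3, the E cyclins CCNE1 and CCNE2, the cyclin-dependent kinases CDK2, CDK4 and CDK6, the kinase inhibitor CDKN1B (p27) and the transcription factor E2F1. They are 10 of the 58219 genes in the count tables, were taken by name and not by level, and all 10 were among the 15765 genes with enough reads to be tested. CDKN1B is the only CDK inhibitor and E2F1 the only E2F factor in the set, so other members of those families are given as surrounding pathway genes. The libraries come from U2OS, an established human osteosarcoma cell line grown in DMEM with 10% FBS. Of 6 libraries, 3 are from cells infected with a scramble shRNA (control) and 3 from cells infected with an shRNA against E4F1, a zinc finger transcription factor. In both groups a 24 h infection was followed by 48 h of puromycin selection, and RNA was taken at 72 h from selected pools, not clones; the labels describe 3 independent pools. The labels do not say whether equally numbered pools of the 2 groups were handled together.

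In G1, D cyclins bind CDK4 or CDK6, and cyclin E binds CDK2. These kinases phosphorylate the retinoblastoma protein RB and its relatives p107 and p130, which hold E2F factors in check, and free E2F then drives the genes of DNA synthesis, CCNE1, CCNE2 and E2F1 among them. CDKN1B blocks CDK2 with cyclin E or A and also helps D cyclins to assemble with CDK4, and its protein level is set largely by SKP2-dependent degradation. U2OS cells are known to keep RB and p53 and to lack p16, the CDKN2A product that inhibits CDK4 and CDK6.

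Proximal promoters are printed for 3 of the 6 members with a promoter in the RefSeq table: the inhibitor, a kinase and the E2F factor. Each line holds the 250 bases before the RefSeq transcription start (GRCh38.p14), 5′ to 3′ on the gene's strand. Matches of 1 chosen motif a gene are in capitals, and other motifs, such as the GC boxes that all 3 hold, are unmarked. The marked ones are the CCAAT boxes of CDKN1B (chr12:12717118-12717367, plus strand), the E-boxes of CDK4 (chr12:57752311-57752560, minus strand) and the E2F octamers of E2F1 (chr20:33686386-33686635, minus strand).
CDKN1B: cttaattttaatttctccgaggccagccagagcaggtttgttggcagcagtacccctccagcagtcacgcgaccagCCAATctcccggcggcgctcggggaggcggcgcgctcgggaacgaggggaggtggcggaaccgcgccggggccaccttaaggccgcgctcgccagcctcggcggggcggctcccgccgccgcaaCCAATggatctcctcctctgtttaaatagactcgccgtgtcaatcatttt
CDK4: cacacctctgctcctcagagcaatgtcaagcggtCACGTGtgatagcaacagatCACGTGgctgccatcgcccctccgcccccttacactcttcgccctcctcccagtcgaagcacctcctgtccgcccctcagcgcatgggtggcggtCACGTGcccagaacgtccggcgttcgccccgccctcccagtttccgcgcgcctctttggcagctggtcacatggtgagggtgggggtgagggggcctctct
E2F1: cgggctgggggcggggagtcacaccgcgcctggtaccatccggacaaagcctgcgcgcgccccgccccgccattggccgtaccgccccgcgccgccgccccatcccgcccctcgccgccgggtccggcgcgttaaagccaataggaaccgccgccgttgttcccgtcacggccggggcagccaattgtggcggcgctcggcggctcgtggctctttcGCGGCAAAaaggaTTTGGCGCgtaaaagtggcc
The CCAAT boxes of CDKN1B begin 174 and 50 bases before the start. CDK4 has E-boxes (CACGTG, the core that MYC and MAX bind) at 216, 196 and 101 bases before it. E2F1 has octamer matches at 33 and 20 bases before it, an arrangement known as the site of E2F autoregulation. The RefSeq table held 9 promoters for 6 members, CCND3, CCNE1, CDK4, CDK6, CDKN1B and E2F1. Both strands were searched for an E2F octamer (TTTGGCGC, TTTGCCGC, TTTCGCGC or TTTCCCGC), the E-box, CCAAT, the GC box GGGCGG and TGACGT, the core of the E4F1 consensus site. Counted per promoter, the octamer stood in 1 of the members' 9 promoters and in 2.79% of 35116 promoters of equal length, and the E-box in 1 of 9 and 6.34%. CCAAT stood in 4 of 9 and 32.0%, and the GC box in 7 of 9 and 42.6%. TGACGT was found in 1 of 9, the second listed promoter of CDK6, at 74 bases before its start, and in 7.10% of all promoters. A match is a run of letters and not a measured binding site.

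The libraries held 14947085 to 16892139 reads in genes. E4F1 itself was at 15.6, 17.7 and 19.1 CPM (counts scaled to a common library total of reads in genes, with TMM) in control libraries 1 to 3 and at 3.18, 3.15 and 2.502 CPM in E4F1 shRNA libraries 1 to 3, a log2 difference of −2.57 (SE 0.14). COL1A1, SPARC and VIM, genes of mesenchymal cells, had means of 1209, 1267 and 2356 CPM in controls, and RUNX2 was at 25.4 to 33.2 CPM, while TWIST1 had no read and COL1A2 was at 0.771 CPM in controls. VIM fell by 0.25 on the log2 scale (edgeR adjusted p = 0.00494) and COL1A1 by 0.16 (edgeR adjusted p = 0.0422, lost on omitting control library 1 or 2 or E4F1 shRNA library 1 or 2). Summed epithelial markers lay at 19.0 to 26.9 CPM, blood cell markers at 1.49 to 2.93 CPM and endothelial markers at 1.71 to 2.54 CPM. Of 5 epithelial markers, KRT5 and KRT19 were near 0, EPCAM rose by 0.43, and CDH1 and CLDN4 fell by 0.41 and 0.49 on the log2 scale. These 3 were at 5.28, 7.67 and 10.9 CPM in controls, and each lost its call on omitting control library 3. EPCAM also lost it on omitting control library 1 or E4F1 shRNA library 2, CLDN4 on omitting E4F1 shRNA library 1, and CDH1 on omitting any library but control library 2. The part of these markers in the members' results was not tested.

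Of the 10 members, 5 rose under the E4F1 shRNA (CDKN1B, CCNE2, CDK4, CDK6 and CCND1), 1 fell (CCND3) and 4 did not pass the test (CCND2, CCNE1, CDK2 and E2F1). The changes were small: the largest, CDKN1B, was 35.6% and the fall of CCND3 was 16.9%. The test was edgeR's quasi-likelihood F-test with Benjamini-Hochberg adjustment over all 15765 genes at a threshold of 0.05, with 3 libraries a group. Among all genes tested 28.9% passed, 14.4% higher and 14.4% lower, so the 6 of 10 members that passed stand beside a background in which changes were common. The 3 libraries of each group did not overlap for 5 members (4 higher, 1 lower), against 41.8% of all genes tested. The members' median log2 fold change was 0.16, against −0.01 over all genes tested and a median size of 0.35 among the genes that passed. In a bulk measurement, a different share of cells in a phase of the cycle and a different amount of RNA per cell cannot be told apart.

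**Figure D1:**
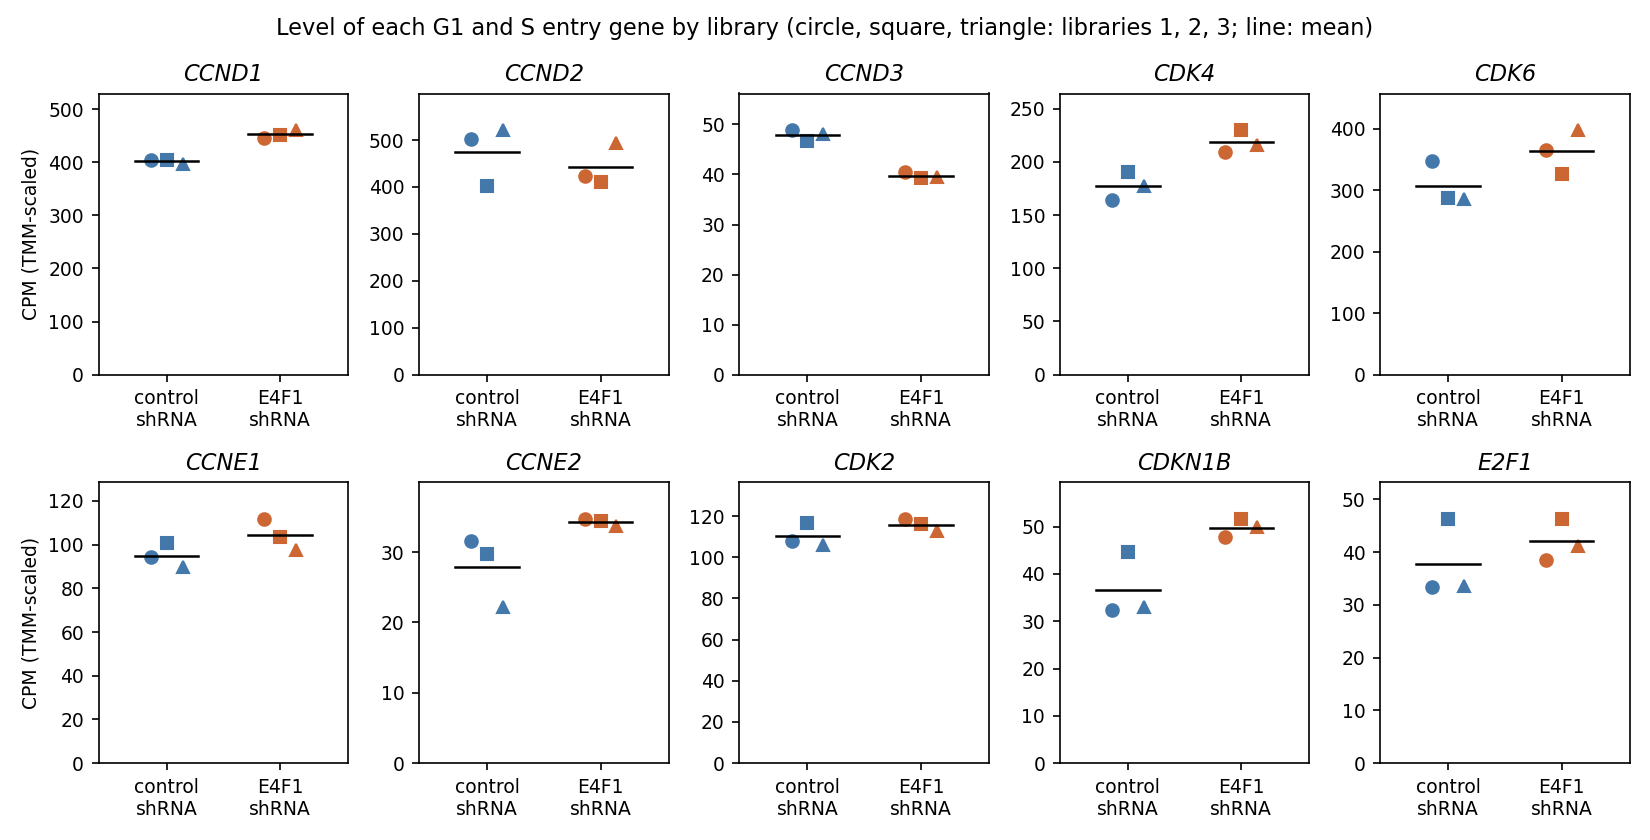
Level of each member in CPM (vertical axes start at 0; scales differ by gene) in the 3 control shRNA libraries and the 3 E4F1 shRNA libraries, with the mean as a line. CCND1, CDK4, CCNE2 and CDKN1B lie higher in every E4F1 shRNA library than in any control library, CCND3 lies lower, and the other 5 members overlap.

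The 3 D cyclins, which couple growth factor signals to CDK4 and CDK6, went in different directions. CCND1 (chr11:69641087-69654474, plus strand, GRCh38) was at 404, 404 and 397 CPM in controls and 445, 452 and 460 CPM under the E4F1 shRNA. The groups did not overlap, and the spread within each was narrow, 402 ± 4.23 against 452 ± 7.53 CPM (SD, n = 3). CCND1 rose by 0.17 on the log2 scale (SE 0.05, edgeR adjusted p = 0.0137), and without E4F1 shRNA library 2 the adjusted p was 0.0504. CCND3 (chr6:41934933-42050357, minus strand) was at 48.8, 46.7 and 48.0 CPM in controls and 40.5, 39.3 and 39.5 CPM under the E4F1 shRNA. Every E4F1 shRNA library was below every control library, and CCND3 fell by 0.27 on the log2 scale (SE 0.06, edgeR adjusted p = 0.00426). CCND2 (chr12:4273772-4305350, plus strand) was at 503, 401 and 521 CPM in controls and 424, 411 and 493 CPM under the E4F1 shRNA. Control library 2 was the lowest of the 6, the groups overlapped, and the log2 fold change of −0.10 had a 95% interval of −0.28 to 0.07 (edgeR adjusted p = 0.389). Its estimate moved with single libraries. It was −0.20 without control library 2 (adjusted p = 0.0185) and −0.18 without E4F1 shRNA library 3, but −0.03 without control library 3 (adjusted p = 0.837), −0.05 without control library 1, and −0.06 and −0.05 without E4F1 shRNA libraries 1 and 2.

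Per length of exon, CCND1 and CCND2 made up nearly all D cyclin RNA. In the controls, CCND1 held 52.8% ± 3.34, CCND2 41.9% ± 3.53 and CCND3 5.23% ± 0.191 of the summed CPM per kb (SD, n = 3). Under the E4F1 shRNA the shares were 57.7% ± 1.82, 38.0% ± 2.01 and 4.23% ± 0.221. The sum itself was 158 ± 8.60 CPM per kb in controls and 162 ± 7.45 CPM per kb under the E4F1 shRNA, ranges that overlap. The ratio of CCND1 to CCND3 in CPM per kb of exon was 9.93, 10.4 and 9.93 in controls 1 to 3. Under the E4F1 shRNA it was 13.2, 13.8 and 14.0. This is from a list of 7 ratios picked after the values were seen. Its exact permutation p was 0.1, the smallest possible, and 0.175 after Benjamini-Hochberg adjustment over the 7. CDK4 over CDK2, CDKN1B over CDKN1A and CDKN1B over CDK2 had the same p-values. The groups overlapped for CCND1 over CCND2, CCNE2 over CCNE1 and CDK4 over CDK6 (exact permutation p = 0.2, 0.3 and 0.9). With the longest transcript as length, CCND3 held 10.7% of the control sum and 8.76% under the E4F1 shRNA.

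**Figure D2:**
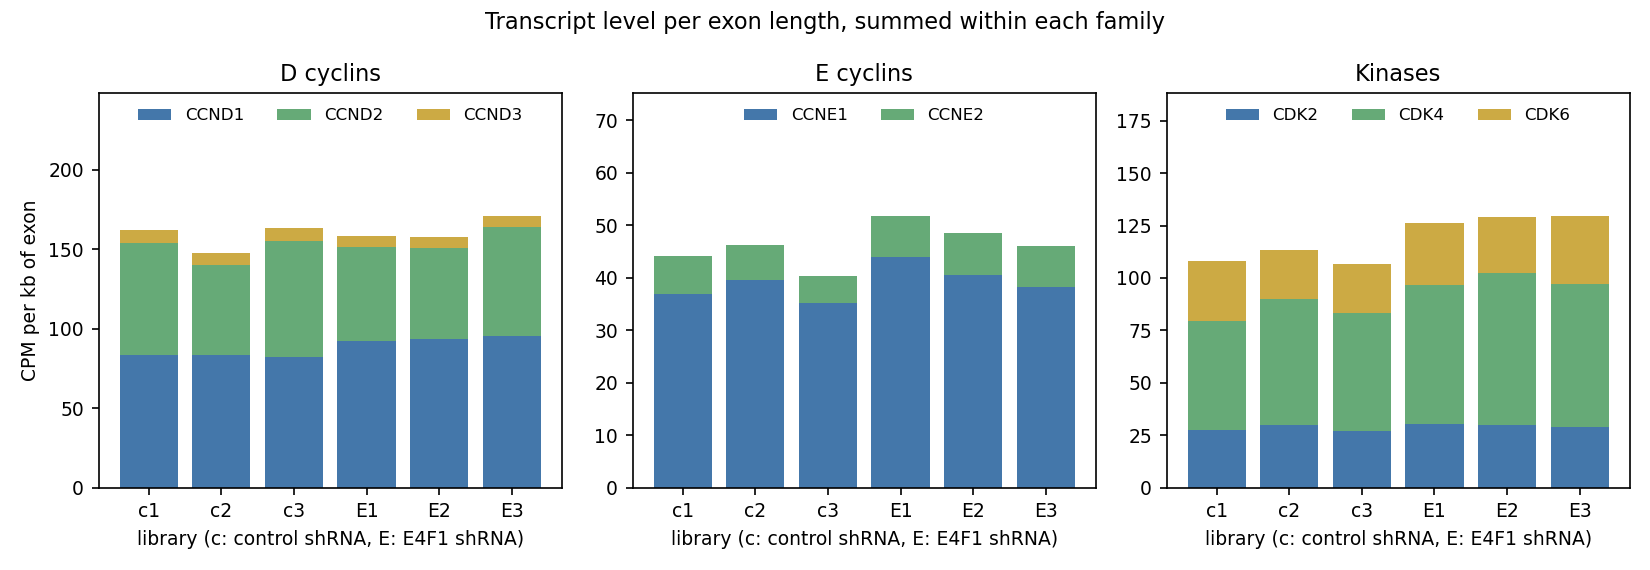
CPM per kb of exon in each library (c1 to c3, control shRNA; E1 to E3, E4F1 shRNA), stacked for the D cyclins, the E cyclins and the kinases. The kinase sum is 107 to 114 in the controls and 126 to 130 under the E4F1 shRNA, while the D cyclin sums overlap.

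Both kinases that D cyclins bind rose. CDK4 (chr12:57747727-57756013, minus strand) was at 165, 191 and 177 CPM in controls and 209, 230 and 216 CPM under the E4F1 shRNA. The groups did not overlap, and the means of 177 ± 13.0 and 218 ± 10.5 CPM (SD, n = 3) differed by 0.30 on the log2 scale (SE 0.06, edgeR adjusted p = 0.00136). CDK6 (chr7:92604921-92836594, minus strand) was at 348, 288 and 286 CPM in controls and 366, 325 and 397 CPM under the E4F1 shRNA. Here control library 1 was above E4F1 shRNA library 2, so the groups overlapped, and CDK6 rose by 0.24 on the log2 scale (SE 0.08, edgeR adjusted p = 0.0267). The call was lost at 0.19 without control library 3 (adjusted p = 0.0909) and at 0.17 without E4F1 shRNA library 3 (adjusted p = 0.132). It was also lost without E4F1 shRNA library 1 (adjusted p = 0.064), where the log2 fold change of 0.24 was the same and the fit had fewer libraries. Without control library 1 the value was 0.35. On the opposite strand, TSPAN31 shares 1369 of the exonic bases of CDK4 (43.2%), and with strand used it was counted apart, at a log2 fold change of 0.00 (SE 0.09).

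CDK2, the kinase of the E and A cyclins, did not pass the test. The gene (chr12:55966769-55972784, plus strand) was at 108, 116 and 106 CPM in controls and 119, 116 and 113 CPM under the E4F1 shRNA. The groups overlapped, and the log2 difference was 0.07 (SE 0.06, 95% interval −0.05 to 0.19, edgeR adjusted p = 0.365). The interval leaves out a change as large as the estimate of 0.30 for CDK4. The ratio of CDK4 to CDK2 in CPM per kb of exon was 1.87, 2.01 and 2.05 in controls 1 to 3. Under the E4F1 shRNA it was 2.16, 2.43 and 2.36, a pair picked after the values were seen.

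The E cyclins bind CDK2 at the start of S phase and are themselves E2F targets. CCNE2 (chr8:94879770-94896678, minus strand) was at 31.6, 29.7 and 22.2 CPM in controls and 34.8, 34.4 and 33.7 CPM under the E4F1 shRNA. Control library 3 was far lower than the other 2, and the E4F1 shRNA libraries were close together and above all 3 controls. CCNE2 rose by 0.30 on the log2 scale (SE 0.10, edgeR adjusted p = 0.0299). Without control library 3 it was at 0.16 (adjusted p = 0.16). Omitting E4F1 shRNA library 1, 2 or 3 gave 0.30, 0.30 and 0.32 (adjusted p = 0.0746, 0.0931 and 0.0633). Without control library 1 it was at 0.41 and passed. INTS8 lies on the opposite strand over 1629 exonic bases of CCNE2 (37.0%) and rose by 0.32 on the log2 scale (SE 0.07, edgeR adjusted p = 0.00159). CCNE2 had 346 to 578 reads per library on its own strand and 145 to 244 when strand was ignored, and with those counts its adjusted p was 0.164. CCNE1 (chr19:29811898-29824308, plus strand) was at 94.3, 101 and 89.9 CPM in controls and 112, 104 and 97.7 CPM under the E4F1 shRNA. The lowest E4F1 shRNA library was below the highest control, and its log2 fold change of 0.14 (SE 0.06, unadjusted 95% interval 0.00 to 0.27) did not pass the test (edgeR adjusted p = 0.117). Without control library 2, CCNE1 was at 0.19 with an adjusted p of 0.0213, and over the other 5 fits with a library omitted it ranged from 0.09 to 0.19 and did not pass. Per length of exon, CCNE1 held 85.5% ± 1.86 of E cyclin RNA in controls and 84.0% ± 0.707 under the E4F1 shRNA (SD, n = 3).

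CDKN1B had the largest fold change of the set. CDKN1B (chr12:12715058-12722371, plus strand) was at 32.4, 44.5 and 33.1 CPM in controls and 47.7, 51.7 and 49.98 CPM under the E4F1 shRNA. Control library 2 lay close below the E4F1 shRNA libraries and the other controls well below, and the groups did not overlap. The means were 36.7 ± 6.82 and 49.8 ± 1.99 CPM (SD, n = 3), a log2 difference of 0.44 with an SE of 0.10 (edgeR adjusted p = 0.00244). The call held without each library in turn, with log2 fold changes from 0.37 to 0.61, the highest of them without control library 2.

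E2F1 (chr20:33675683-33686404, minus strand), an activator of S phase genes and of its own promoter, was at 33.5, 46.3 and 33.6 CPM in controls and 38.6, 46.3 and 41.2 CPM under the E4F1 shRNA. Control library 2 was level with the highest E4F1 shRNA library, so the groups overlapped. The log2 fold change was 0.15 (SE 0.11, 95% interval −0.07 to 0.37) and did not pass the test (edgeR adjusted p = 0.304). It was 0.34 without control library 2 (adjusted p = 0.00198), but 0.09 without control library 1, 0.07 without control library 3 and 0.08 without E4F1 shRNA library 2 (adjusted p = 0.644, 0.679 and 0.687).

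**Figure D3:**
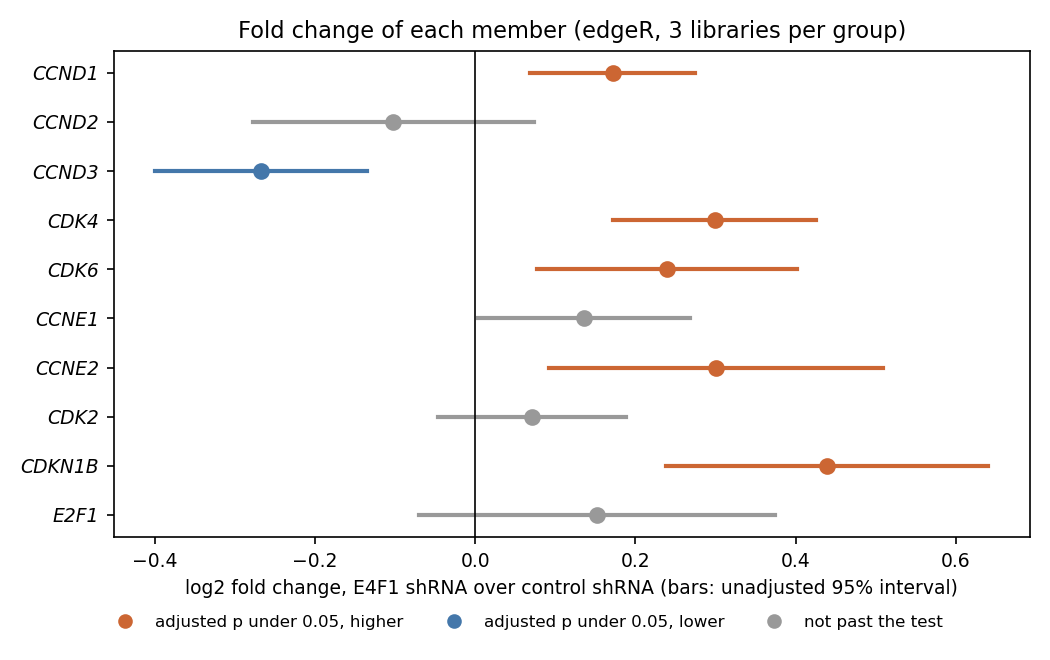
Log2 fold change of each member, E4F1 shRNA over control shRNA, with the unadjusted 95% interval of the edgeR fit (3 libraries a group). CDKN1B, at 0.44, is the highest, CCND3, at −0.27, the lowest, and the intervals of CCND2, CDK2 and E2F1 include 0.

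Control library 2 lay nearest to the E4F1 shRNA libraries for most members. It was the control nearest to the E4F1 shRNA mean for 8 of 10 members, and control library 1 was for the other 2, CCNE2 and CDK6. For CCND1 the 2 controls were nearly level, at 404.3 CPM in control library 2 and 403.7 CPM in control library 1. The count is not particular to the members, because whole libraries showed the same order. Chi-square per degree of freedom against the E4F1 shRNA libraries was at most 11.18 for control library 2. It was at least 12.95 for control library 1 and 20.28 for control library 3. Markers of dividing cells moved with control library 2. Their summed level was 3764, 4324 and 3393 CPM in controls 1 to 3 and 4908, 4820 and 4551 CPM under the E4F1 shRNA. The sum was thus highest in control library 2 among the controls and higher still in all 3 E4F1 shRNA libraries, and its part in the members' results was not tested. With control library 2 left out, 9 of 10 members passed, all but CDK2, and the share of all genes that passed was also higher, 33.4% against 28.9%. Omitting control library 3 or E4F1 shRNA library 1, 2 or 3 left 4 members past the test, where 19.7%, 19.6%, 18.8% and 24.6% of all genes passed. Omitting control library 1 left 6 members and 21.8% of all genes. CCND3, CDK4 and CDKN1B passed in each of these fits.

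**Figure D4:**
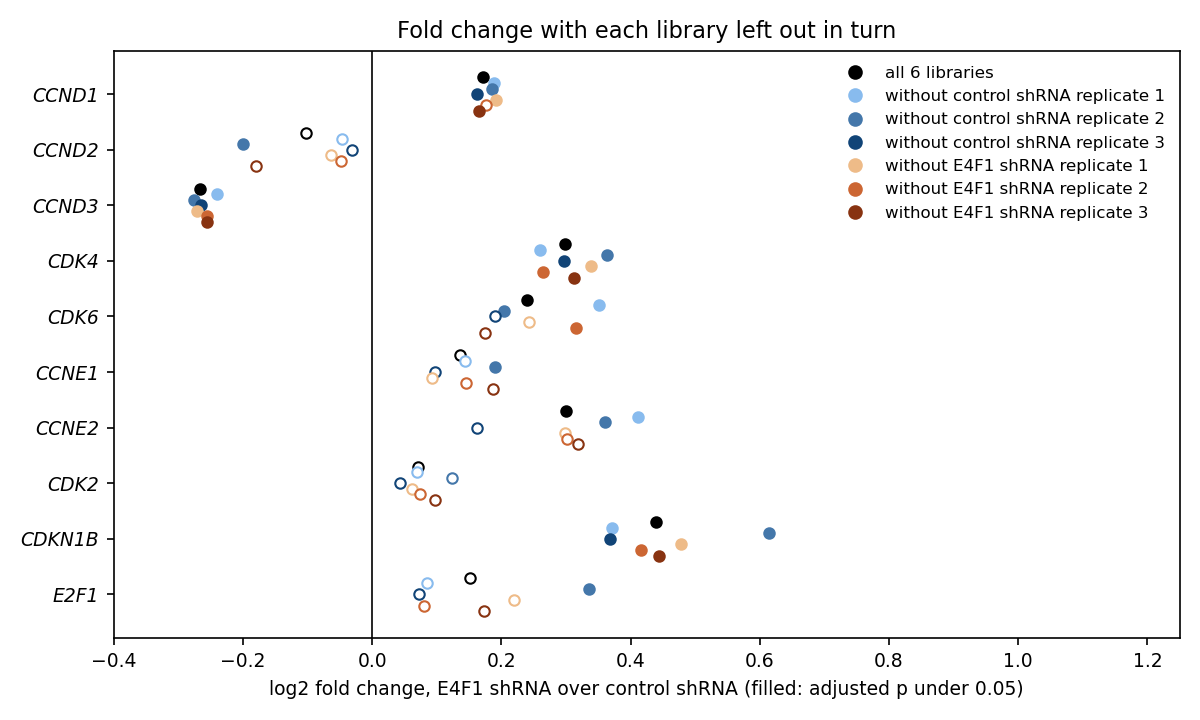
Log2 fold change of each member with all 6 libraries (black) and with each library left out in turn; filled points have an adjusted p under 0.05. CCND3, CDK4 and CDKN1B are filled throughout, and CCND2, CCNE1 and E2F1 are filled only without control library 2.

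Levels between members were compared per kb of exon, in the controls. CCND1 stood highest at 83.1 ± 0.876 CPM per kb, followed by CCND2 (66.4 ± 9.002) and CDK4 (56.0 ± 4.11), whose libraries overlapped. CCNE1 came next at 37.2 ± 2.15 CPM per kb. Below it, CDK2 (28.3 ± 1.42) and CDK6 (25.1 ± 2.87) overlapped, as did E2F1 (15.1 ± 2.94) and CDKN1B (13.0 ± 2.43). CCND3 (8.25 ± 0.187) and CCNE2 (6.33 ± 1.12) were lowest and did not overlap each other (SD, n = 3 throughout). The order depends on the length taken: per kb of the longest transcript, CDK4 was at 85.5, above CCND2 at 73.3, and CCND3 at 19.99, above E2F1 and CDKN1B. By the mean of all 6 libraries, CCND1 was at the percentile 97.5 of tested protein-coding genes per kb of exon and CCNE2 at 55.3.

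The heptamer CTTATCT was examined in the annotated 3′ UTRs because genes that carry it had moved upward as a group in these libraries. It stood in CCND2, CDK4 and CDK6, that is 3 of 10 members, against 14.5% of tested protein-coding genes. Of 1903 tested genes with it, 35.5% rose and 7.99% fell, and of 11202 without it, 13.4% rose and 16.8% fell, shares given as a description because the heptamer was chosen on these libraries. CDK4 and CDK6 rose, while CCND2 was at −0.10 and did not pass the test. None of these shares was matched for the length of the 3′ UTR, and the part of the heptamer in the members' changes was not tested.

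Around the set, 8 lists of pathway genes held 86 genes that were tested, of which 43 passed, against 28.9% of all genes. Among the other E2F and DP factors, 2 of 9 rose, 1 fell and 6 did not pass, with a median log2 fold change of −0.01. E2F2, an activator, rose by 0.42 (19.4 ± 5.82 to 26.0 ± 1.98 CPM, SD, n = 3) and E2F8, an atypical repressor, by 0.42 (14.7 ± 3.70 to 19.8 ± 2.75 CPM), both with groups that overlapped. The activator E2F3 fell by 0.20 on the log2 scale. Values that did not pass were −0.44 for E2F5 (edgeR adjusted p = 0.0594), −0.10 for E2F4, 0.06 for E2F6, −0.01 for E2F7, 0.03 for TFDP1 and −0.08 for TFDP2. E2F5 was low, at means of 6.05 CPM in controls and 4.46 CPM under the E4F1 shRNA. It had 61 to 105 reads per library on its own strand and 943 to 1162 on the opposite strand. None of the 3 calls in this list held without each library in turn. Omitting control library 1, control library 3 or E4F1 shRNA library 2 ended all 3, E4F1 shRNA library 1 those of E2F3 and E2F8, and E4F1 shRNA library 3 that of E2F2.

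The pocket proteins that bind E2F, and the DREAM and MuvB partners that hold or drive cell cycle genes with them, were 9 genes, of which 6 rose and 3 did not pass, with a median of 0.28. RBL1, which encodes p107, was at 45.7, 52.7 and 39.3 CPM in controls and 64.6, 68.4 and 64.6 CPM under the E4F1 shRNA (log2 0.52, edgeR adjusted p = 0.000188). RB1 was at 72.9, 69.8 and 66.2 CPM in controls and 90.9, 85.3 and 82.6 CPM under the E4F1 shRNA (log2 0.31, edgeR adjusted p = 0.00117). For both, every E4F1 shRNA library was above every control. The MuvB subunits LIN54 (0.49), LIN9 (0.43) and LIN52 (0.28) rose, as did the MuvB partner MYBL2 (0.24), an E2F target itself. RBL2 was at 0.12, RBBP4 at 0.07 and LIN37 at −0.41, none past the test. Omitting control library 1 or E4F1 shRNA library 2 ended the calls of LIN52 and MYBL2, E4F1 shRNA library 3 that of LIN52, and control library 3 or E4F1 shRNA library 1 that of MYBL2.

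Among the other CDK inhibitors, 2 of 6 tested genes rose, 1 fell and 3 did not pass, with a median of 0.20. CDKN1A, which encodes p21 and is a p53 target, fell by 0.38 on the log2 scale (SE 0.10, edgeR adjusted p = 0.00603), opposite in sign to CDKN1B. It was at 403, 317 and 456 CPM in controls and 275, 297 and 330 CPM under the E4F1 shRNA, and control library 2 lay inside the E4F1 shRNA range. The ratio of CDKN1B to CDKN1A in CPM per kb of exon was 0.0872, 0.152 and 0.0787 in controls 1 to 3. Under the E4F1 shRNA it was 0.188, 0.189 and 0.165, again a pair picked after the values were seen. CDKN3, a phosphatase of CDK2, rose by 0.30 (99.4 ± 9.46 to 122 ± 8.86 CPM, SD, n = 3), and CDKN2C, which encodes p18, rose by 0.40 (24.4 ± 5.57 to 32.3 ± 3.30 CPM). The call of CDKN2C ended on omitting control library 1, control library 3, E4F1 shRNA library 1 or E4F1 shRNA library 2. CDKN2B was at 0.21, CDKN2D at 0.19 and CDKN1C at 0.08, none past the test. CDKN2A had 0 or 1 read in each library and was not tested.

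Of 9 genes that activate CDKs or act as later cyclins, 5 rose, 2 fell and 2 did not pass (median 0.20). CCNA2, the cyclin of S phase, rose from 174 ± 25.9 to 242 ± 16.0 CPM (log2 0.47), the phosphatase gene CDC25A from 53.7 ± 4.89 to 71.9 ± 3.00 CPM (log2 0.42) and CDK1 from 225 ± 18.6 to 285 ± 22.5 CPM (log2 0.34; SD, n = 3). CDC37, a chaperone partner of CDK4, fell by 0.24 on the log2 scale, a call that ended on omitting E4F1 shRNA library 2. MNAT1 (0.21) and CCNB2 (0.20), which rose, and CDK7, which fell by 0.26 on the log2 scale, are named after their values were seen. Omitting E4F1 shRNA library 1 or 2 ended the calls of MNAT1 and CCNB2, and control library 1 or 3 that of CCNB2.

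Of 18 E2F-driven genes of S phase entry, 9 rose and 9 did not pass, and all 18 were fitted above 0 by edgeR (median 0.24). RRM2, a subunit of ribonucleotide reductase, rose most clearly, from 374 ± 63.6 to 545 ± 38.6 CPM (log2 0.54), with MCM6 (0.40) of the replicative helicase, the sliding clamp gene PCNA (0.26) and RRM1 (0.29). Among 10 markers of dividing cells, 7 rose and 3 did not pass, and all 10 were fitted above 0 (median 0.32), BIRC5 (0.42), KIF11 (0.48), CENPF (0.38) and TOP2A (0.37) among them.

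Of 13 tested genes for ubiquitin ligases and partners that turn over G1 cyclins and p27, 1 rose and 12 did not pass (median 0.10). The one that rose was the deubiquitinase gene USP28 (log2 0.21), whose call ended on omitting control library 3 or E4F1 shRNA library 2. SKP2, named after its value was seen because its product targets p27, was at 79.5, 102 and 66.6 CPM in controls and 94.5, 90.7 and 83.9 CPM under the E4F1 shRNA (log2 0.12, edgeR adjusted p = 0.431).

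Of 12 regulators upstream of the cyclin D and p27 genes, 3 rose, 4 fell and 5 did not pass (median −0.04). FOXO3, a factor that activates CDKN1B, was at 29.98, 26.0 and 28.3 CPM in controls and 38.2, 41.0 and 44.4 CPM under the E4F1 shRNA (log2 0.55, edgeR adjusted p = 6.19e-05). MYC, which activates CDK4 and represses CDKN1B, was at 182, 173 and 206 CPM in controls and 142, 135 and 148 CPM under the E4F1 shRNA (log2 −0.40, edgeR adjusted p = 0.000199). In both genes the groups did not overlap. SP1, a factor that binds GC boxes, rose by 0.24. FOXM1 (0.24), which rose, and MAPK3 and DYRK1B, which fell by 0.25 and 0.49 on the log2 scale, are named after their values were seen. Omitting control library 1 ended the calls of all 3, E4F1 shRNA library 2 those of FOXM1 and MAPK3, control library 3 or E4F1 shRNA library 1 those of FOXM1 and DYRK1B, and E4F1 shRNA library 3 that of DYRK1B.

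**Figure D5:**
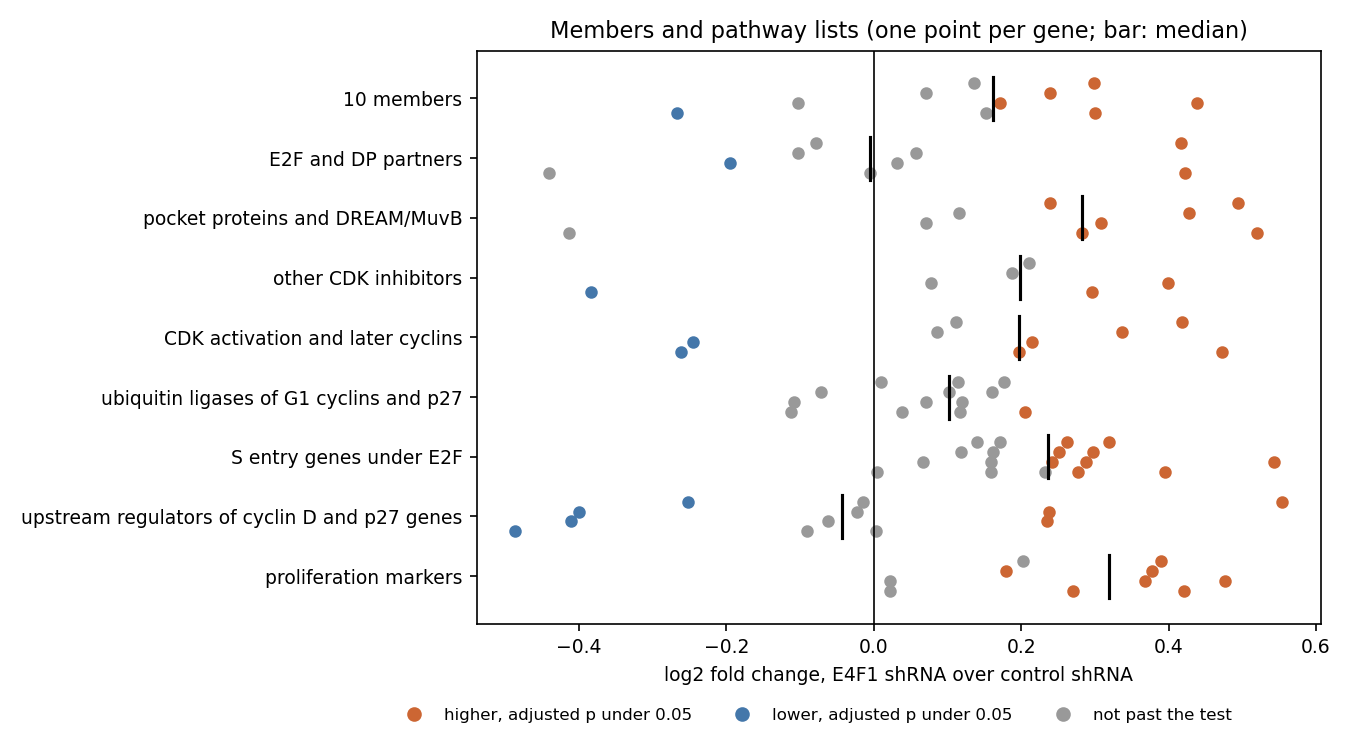
Log2 fold change of the 10 members and of the genes tested in 8 pathway lists (1 point a gene; bar, median; orange and blue, higher and lower with an adjusted p under 0.05). Medians run from −0.04 for the upstream regulators to 0.32 for the proliferation markers, beside 0.16 for the members.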

How the data were processed

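Polyadenylated RNA of 6 U2OS libraries was prepared with a KAPA HyperPrep kit. The tables the authors deposited hold raw read counts per gene, as STAR writes them. The submitters' processing notes name bcl2fastq 2.20, STAR 2.5.1b and GRCh38, and no annotation release. Counts of the reverse-strand column were used, so genes on opposite strands were counted apart. The summary lines for reads that STAR did not assign to a gene (27.1% to 31.7% of each table) were left out. Symbols, coordinates, exon lengths and UTRs are from GENCODE 29 on GRCh38 (57836 identifiers matched), and promoters from RefSeq (GRCh38.p14).

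Low counts were removed with filterByExpr, scaling was by TMM, and the test was that of edgeR 4.0.16 (R 4.3.3; quasi-likelihood F-test, group as the only term, two-sided, Benjamini-Hochberg over 15765 genes, threshold 0.05). The code was tested on simulated data. Libraries of a group differed by more than sampling noise (chi-square per degree of freedom 2.45 to 6.36), so none was counted as a duplicate. The p-values rest on the spread between 3 pools a group, moderated for each gene by the spread of other genes. The fit had a median of 17.3 total degrees of freedom. CPM per kb uses the union of a gene's exons, and ratios between 2 genes use CPM per kb.

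Alternatives were DESeq2 1.42.0 and its size factors, limma 3.58.1 (voom), library totals, no filter on low counts, a filter of 1 CPM in 3 libraries, counts ignoring strand, the longest transcript as length, a replicate block and leaving out each library. The members and lists were chosen with earlier results of these data known. All members were named, every tested gene of the E2F, pocket protein and CDK inhibitor lists, and up to 4 genes with the smallest adjusted p in each other list; further names are marked. One gene of the upstream regulator list that this rule would name is not reported here.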

Additional observations from a re-analysis of the deposited data

How the results depend on the processing

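Over the members and E4F1, 87 of 88 values kept direction and call under the 8 settings that kept all libraries; the other was CCNE2 with counts ignoring strand (log2 0.24, adjusted p = 0.164). With each library left out in turn, 55 of 66 were unchanged, 8 lost and 3 gained a call, and none reversed. Members past the test numbered 5 or 6 with all libraries and 4 to 9 with a library left out. Genes past the test numbered 3723 to 4865 with all libraries and 3031 to 5370 with a library left out, the fewest without E4F1 shRNA library 2 and the most without control library 2. The 43 pathway list genes past the test became 28 to 54 with the same libraries left out. Fits with a library left out have fewer samples. The equal numbers of the pools need not mark a pairing: deviations of equally numbered libraries correlated at 0.01, 0.05 and 0.05, and not every library correlated best with its own number. With the number as a replicate block, 4865 genes, 6 members and 49 pathway list genes passed. CCNE2, CDKN1B, E2F1 and CCND3 had the fewest reads (346 to 869 per library). With 3 libraries a group, small differences may have gone undetected, and the unadjusted intervals do not mark the limit of the adjusted test.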
